A study of Mus musculus with 2 samples.

Results

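The 10 genes described here are ligands, modulators and targets of the Wnt pathway: Wnt4, Wnt5a, Wnt7b, Wnt9b, Wnt16, Lgr5, Lef1, Axin2, Sfrp2 and Rspo3. They are 10 of the 32285 genes counted. They were picked from the pathway partly because Lgr5 and Sfrp2 differed between the libraries, so every difference between libraries below is a description and supports nothing beyond itself. The study compared 2 single-cell RNA libraries of dissociated mouse kidney, 1 per group, and addresses the loss of 1 allele of Phd3 in endothelium after ischemia. In the control library the genotype was Cre-. In the haplodeficient library it was Cdh5-CreERT2; Phd3f/+, in which a tamoxifen-activated Cre recombinase is made from the promoter of Cdh5, the gene of an endothelial cadherin, and 1 of the 2 alleles of Phd3 (gene symbol Egln3, a prolyl hydroxylase that reads oxygen) is floxed. Both groups had ischemia and reperfusion of 1 kidney by clamping of the renal artery, then 4 tamoxifen injections, and were analysed at day 14. Both belonged to batch 1. How many animals gave cells to a library, their age, and whether the control carried a floxed allele are not given in the sources used here. With 1 library per group there is no replicate check and no test: a difference may be one between animals, dissections or runs. Ratios are given with 95% intervals that cover counting error only.

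Wnt proteins are secreted signals that bind Frizzled receptors with the co-receptors Lrp5 and Lrp6. In the canonical branch this stops the destruction of beta-catenin, which then acts with the DNA-binding factors of the TCF/LEF family to raise target genes. R-spondins, bound by receptors of the Lgr family, keep Frizzled receptors at the cell surface, and secreted Frizzled-related proteins bind Wnts outside the cell. In the developing kidney Wnt9b from the ureteric bud and Wnt4 in the induced mesenchyme drive nephron formation, and Wnt7b is needed for the medulla. Wnt genes are re-expressed in injured kidneys, where they have been studied in tubule repair and in fibrosis.

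Axin2 and Lef1 are themselves Wnt targets, so the stretch upstream of their starts was read for the letters CTTTGA, the core of the binding site of TCF/LEF factors, on either strand. Windows of 250 bases before a RefSeq gene start (GRCm38.p6) were searched. CTTTGA was found in 4544 of 32851 such windows (13.8%). The promoter table held 9 windows for 6 of the 10 genes (Wnt4, Wnt9b, Wnt16, Lef1, Axin2 and Sfrp2), and 1 of the 9 held the letters. Among 14 windows of 8 genes of the target list, 3 held them: an inner start of Lef1, Sp5 (a zinc-finger factor) and 1 start of Tnfrsf19 (a receptor of the TNF family, at chr14:61037988-61038237 on the minus strand). The windows of 3 genes are printed because their genes carry the differences described below: Axin2 differed in distal tubule cells, Lef1 in endothelium and Sp5 in the descending thin limb. Of the 4 windows of Lef1 only the inner one is shown, since it holds the matches; the other 3, those at its outermost start included, held 0. Each lies on the plus strand and runs 5′ to 3′ towards the start; the window of Axin2 is chr11:108920099-108920348, that of the inner Lef1 start is chr3:131156044-131156293, inside an intron of the longer Lef1 transcripts, and that of Sp5 is chr2:70474673-70474922. Capitals mark CTTTGA or, on the other strand, TCAAAG.
Axin2: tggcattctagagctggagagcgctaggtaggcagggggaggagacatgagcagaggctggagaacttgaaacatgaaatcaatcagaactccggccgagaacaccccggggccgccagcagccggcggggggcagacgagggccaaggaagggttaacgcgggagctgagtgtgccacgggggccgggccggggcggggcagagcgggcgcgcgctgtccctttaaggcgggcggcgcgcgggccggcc
Lef1, inner start: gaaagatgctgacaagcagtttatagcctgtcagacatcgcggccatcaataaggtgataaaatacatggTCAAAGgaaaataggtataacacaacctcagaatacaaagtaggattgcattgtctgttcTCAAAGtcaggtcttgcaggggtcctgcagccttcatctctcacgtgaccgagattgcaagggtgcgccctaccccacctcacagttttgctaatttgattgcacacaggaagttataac
Sp5: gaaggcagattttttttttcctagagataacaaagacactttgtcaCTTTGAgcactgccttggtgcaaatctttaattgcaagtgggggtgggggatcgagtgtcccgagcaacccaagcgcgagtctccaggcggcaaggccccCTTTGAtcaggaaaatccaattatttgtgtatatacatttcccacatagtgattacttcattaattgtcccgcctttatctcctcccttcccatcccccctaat
The Axin2 window held no match, and 69.2% of its bases were G or C. In the inner Lef1 window the matches began 180 and 120 bases before the start, and in the Sp5 window 204 and 104 bases before it. A match is a string of letters and not a measured site, and no match says only that these letters are not in this window.

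The control library held 134190236 UMIs (unique molecular identifiers, each standing for 1 captured RNA molecule) and the haplodeficient library 114668145. After filtering, 8737 and 9222 cells were kept, with a median of 8762 and 5471.5 UMIs and of 10.2% and 2.69% mitochondrial UMIs per cell. The libraries shared 23 cell barcodes. Cells were sorted into clusters without the use of any Wnt gene and named from marker lists, so that "endothelium-like" means a cluster led by endothelial markers. Of 19 named classes, 16 had at least 50 cells in each library and were compared. The cell make-up of the libraries differed: proximal tubule-like cells numbered 3142 and 387, endothelium-like cells 363 and 794, and T cell-like cells 178 and 1038. Endothelium-like cells held 58 and 111 UMIs of Egln3, 24.2 and 21.0 CPM (UMIs per 1000000 UMIs), a ratio of 0.869 (0.627 to 1.22). A 3′ tag outside the deleted part would not show the deletion, so this value checks nothing about the labels.

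Levels here are CPM of a class: all UMIs of a gene in the cells of that class in 1 library, per 1000000 UMIs of those cells. Averaged over the libraries, Wnt4, Wnt5a, Axin2 and Rspo3 were highest in fibroblast-like cells, Wnt7b in descending thin limb-like cells, Wnt9b in principal or connecting tubule-like cells and Wnt16 in parietal epithelium-like cells. Lgr5 and Lef1 were highest in endothelium-like cells, and Sfrp2 in the pericyte or smooth muscle-like class. The leading class stood clear of the next by 32.8 times for Wnt16, 19.8 times for Lgr5, 9.43 times for Rspo3 and 6.71 times for Wnt9b. For Axin2 the leading 5 classes lay within a narrow band, the first only 1.08 times above the second. Immune classes other than T cell-like cells held few UMIs of these genes, and macrophage-like cells gave at most 5.78 CPM for Wnt4 and less for the others. With a UMI minimum set for each library on its own (5718 and 6988 UMIs), 5 of the 10 genes kept their leading class, and Wnt4, Wnt5a, Axin2, Sfrp2 and Rspo3 did not; 12 classes were compared there in place of 16, and a class no longer compared could not lead.

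**Figure D1:**
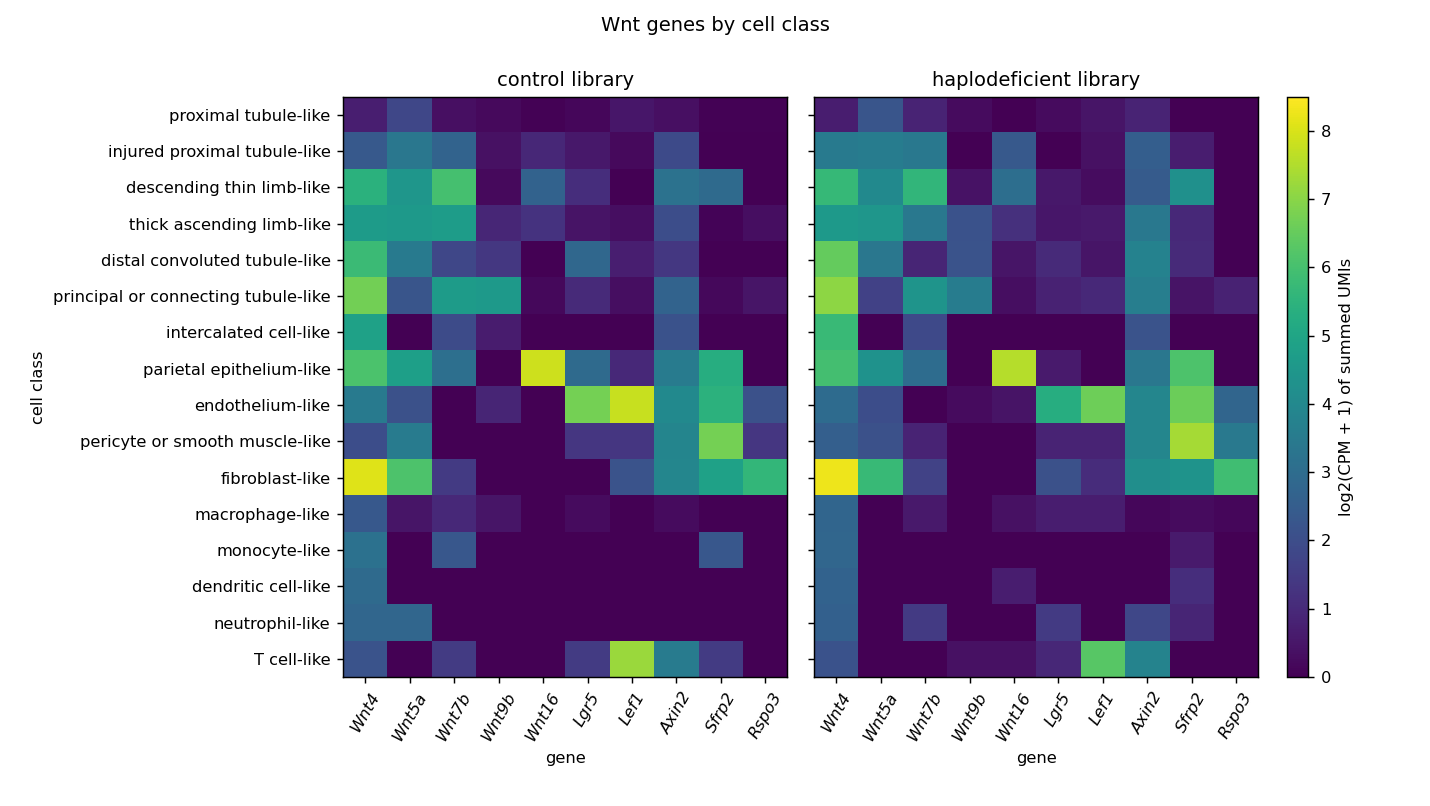
Level of each of the 10 Wnt genes (columns) in each of the 16 compared cell classes (rows), as log2(CPM + 1) of UMIs summed over the cells of a class, control library left and haplodeficient library right, on 1 colour scale from 0 to 8.5. Wnt16 stands out in parietal epithelium-like cells, Lgr5 and Lef1 in endothelium-like cells, Wnt4 in fibroblast-like cells and Rspo3 in fibroblast-like cells in both libraries.

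A gene and class were compared where at least 30 UMIs of the gene were counted over both libraries, and the pair was called where the CPM of the libraries differed at least 2-fold and the interval of the ratio left out 1. Of 160 pairs, 47 had enough UMIs and 12 were called, 7 higher and 5 lower in the haplodeficient library. The pairs called lay in 6 classes: 3 of 6 countable genes in endothelium-like cells (3.57% of all countable genes were called there), 3 of 6 in thick ascending limb-like cells (5.58%), 2 of 4 in distal convoluted tubule-like cells (4.86%), 2 of 5 in principal or connecting tubule-like cells (6.37%), 1 of 6 in descending thin limb-like cells (5.77%) and 1 of 4 in injured proximal tubule-like cells (5.02%). Among the 6 countable genes in parietal epithelium-like cells 0 were called (4.01%), as were 0 of 4 in fibroblast-like cells (6.03%), 0 of 2 in T cell-like cells (5.08%) and 0 of 1 in each of 4 others: proximal tubule-like (9.14%), intercalated cell-like (5.06%), pericyte or smooth muscle-like (3.86%) and macrophage-like cells (4.12%). Since the genes were chosen with this contrast in view, nothing is read from these shares. Monocyte-like, dendritic cell-like and neutrophil-like cells held no countable pair.

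**Figure D2:**
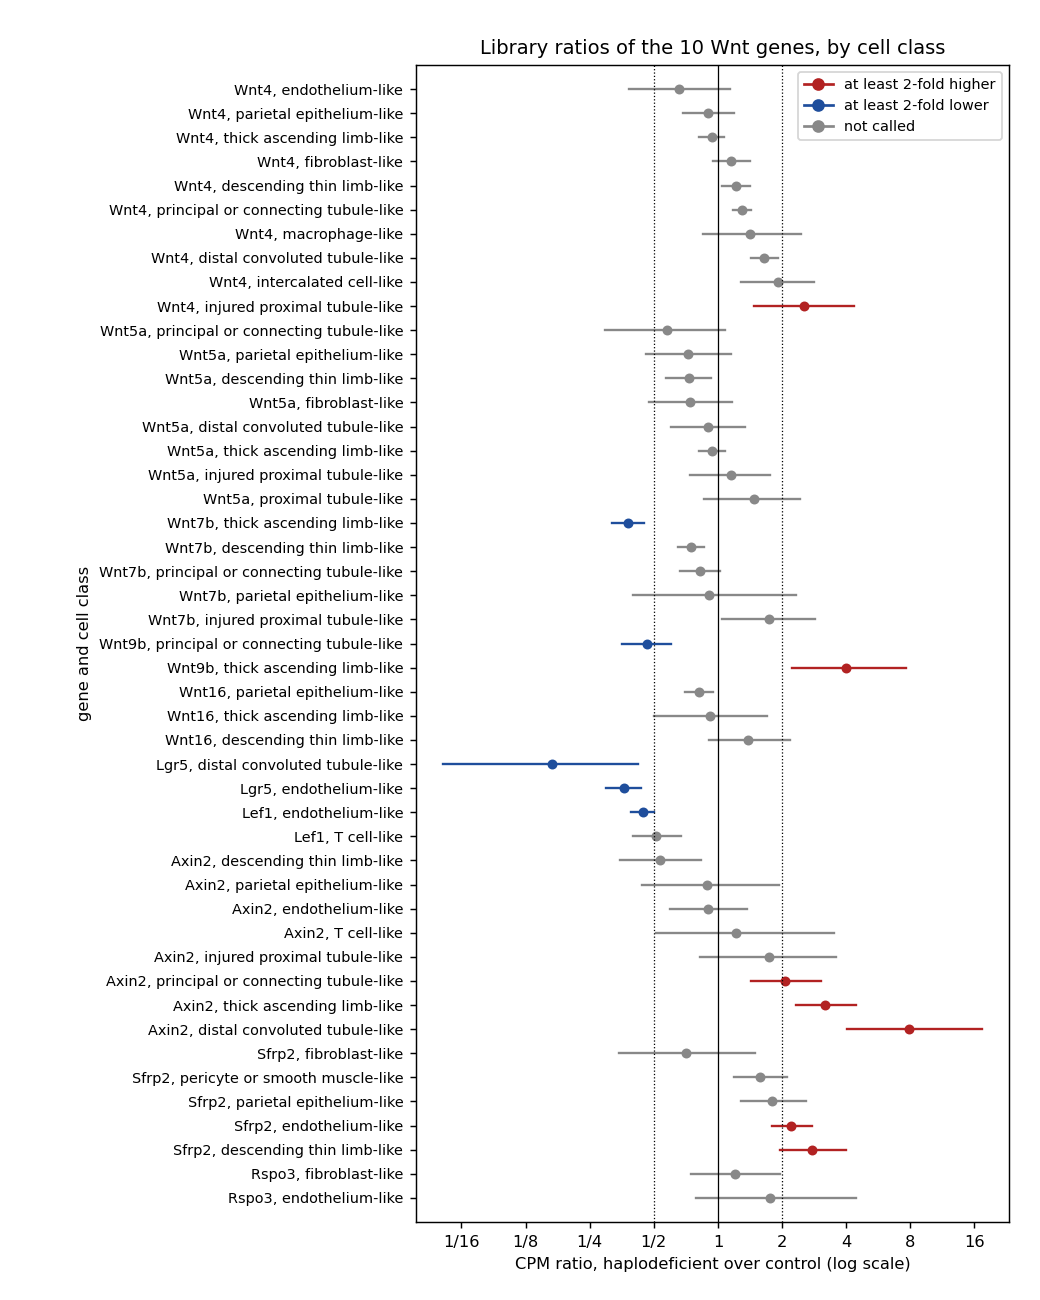
CPM in the haplodeficient library over CPM in the control library (log axis) for the 47 pairs of a Wnt gene and a cell class with at least 30 UMIs; points are ratios, bars their 95% counting intervals, and dotted lines mark 2-fold. Axin2 in distal convoluted tubule-like cells lies farthest to the right at 7.91, and Lgr5 in the same class, whose control UMIs come mostly from 1 cell, farthest to the left at 0.166.

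Wnt4 (chr4:137277489-137299726, plus strand) is a ligand of nephron formation that stays on in the adult collecting duct and appears in activated interstitial cells. Its highest level was in fibroblast-like cells, with 157 and 286 UMIs (control first, as in all pairs below), 273 and 314 CPM, a ratio of 1.15 (0.944 to 1.41). Principal or connecting tubule-like cells came next at 102 and 133 CPM (1.297, 1.18 to 1.42). Distal convoluted tubule-like cells had 54.3 and 89.8 CPM (1.65, 1.43 to 1.91), intercalated cell-like cells 28.2 and 53.6 CPM (1.90, 1.29 to 2.83) and descending thin limb-like cells 41.7 and 50.6 CPM (1.21, 1.04 to 1.42). In these 4 tubule classes Wnt4 was higher in the haplodeficient library by less than 2-fold, while parietal epithelium-like cells had 67.8 and 60.6 CPM (0.895, 0.682 to 1.18). Wnt4 was called in injured proximal tubule-like cells, which are marked by Havcr1 and Vcam1: 27 and 35 UMIs gave 4.14 and 10.4 CPM, 2.52 times higher (1.48 to 4.33). Those UMIs lay in 19 of 433 and 24 of 241 cells. A UMI of Wt1 was in 4 of these 19 and 10 of these 24 cells, against 39 of 414 and 32 of 217 cells without Wnt4. Median depth was 15019 and 14591.5 UMIs in cells with Wnt4, against 11607 and 9824 in those without. The part of Wt1-positive cells and of depth in the Wnt4 ratio was not tested. The call was lost at a Leiden resolution of 2 (1.52) and with doublets kept (1.81), 2 of 10 alternatives. Thick ascending limb-like cells as a whole were level (24.6 and 23.0 CPM, 0.936), but their 2 clusters were not alike: Wnt4 had 35.2 and 24.6 CPM (0.698) in the cluster of deeper cells led by Gabrp and Mmp7, and 5.10 and 12.98 CPM (2.55) in the cluster led by Egf and Umod. Endothelium-like cells held 10.4 and 6.82 CPM (0.654).

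Wnt5a (chr14:28504750-28527448, plus strand) acts mostly through non-canonical receptors such as Ror2. It was highest in fibroblast-like cells, where 40 and 47 UMIs gave 69.5 and 51.6 CPM (0.743, 0.477 to 1.16). Parietal epithelium-like cells had 26.7 and 19.2 CPM, thick ascending limb-like cells 22.6 and 21.3 CPM on 364 and 442 UMIs (0.939), and descending thin limb-like cells 21.0 and 15.3 CPM (0.727, 0.568 to 0.932). Wnt5a was called in none of its countable classes, though in descending thin limb-like cells the interval of its ratio left out 1.

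Wnt7b (chr15:85535437-85582473, minus strand), the ligand that shapes the medulla during development, was highest in descending thin limb-like cells, with 387 and 423 UMIs, 63.0 and 47.2 CPM (0.748, 0.651 to 0.861). Principal or connecting tubule-like cells had 24.3 and 20.01 CPM (0.824). The Wnt7b call was in thick ascending limb-like cells: 405 UMIs in 206 of 1039 control cells against 198 UMIs in 148 of 1167 haplodeficient cells, 25.2 and 9.52 CPM, a ratio of 0.378 (0.317 to 0.449). It was lower in both clusters of that class, at 0.321 in the deeper cells and 0.475 in the others. Injured proximal tubule-like cells went the other way, at 5.52 and 9.55 CPM (1.73, 1.04 to 2.87), without a call. Endothelium-like cells held 0 UMIs of Wnt7b in both libraries, where 3 UMIs would have been 1.25 and 0.569 CPM.

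Wnt9b (chr11:103727364-103749821, minus strand), the ureteric bud signal, was highest in principal or connecting tubule-like cells, the class that holds the collecting duct cells descended from that bud. There 183 UMIs in 69 control cells and 87 UMIs in 61 haplodeficient cells gave 23.3 and 10.8 CPM, a ratio of 0.465 (0.356 to 0.603). An unnamed cluster of deep cells with principal-cell and intercalated-cell markers had 16.1 and 5.25 CPM (0.326, 0.228 to 0.460). In thick ascending limb-like cells Wnt9b was low but higher in the haplodeficient library: 14 and 72 UMIs, in 12 and 53 cells, gave 0.870 and 3.46 CPM, a ratio of 3.98 (2.22 to 7.64). Most of those UMIs came from the cluster of deeper cells, with 7 and 57 UMIs and a ratio of 4.72 (2.15 to 12.3). Distal convoluted tubule-like cells held 10 and 17 UMIs of Wnt9b, too few to be compared. The summed level of 10 principal-cell markers in the Thick ascending limb class was 91.8 and 137 CPM, with 0 of the 10 absent in each library; its part in the Wnt9b ratio was not tested.

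Wnt16 (chr6:22288227-22298522, plus strand), a ligand known for regulating bone cortex and joint tissue, was highest in parietal epithelium-like cells. This class was named from markers of the lining of the glomerular capsule, of which 6 of 8 passed. Only 1 of them, Wt1, was among its 10 leading genes, and podocyte was the class that scored second. Its 94 control and 290 haplodeficient cells held 243 and 707 UMIs, 232 and 189 CPM (0.814, 0.703 to 0.946). At least 1 UMI of Wnt16 was seen in 67.0% and 59.7% of them, against 0% and 0.167% of macrophage-like cells, whose median depth was 5087.5 and 6223.5 UMIs. When the cells were clustered at a resolution of 2, with doublets kept or with Wnt genes among the variable genes, 15 classes were compared in place of 16. The leading class of Wnt16 was then descending thin limb-like cells. With each library clustered on its own, 11 were compared and it was thick ascending limb-like cells. A class no longer compared could not lead, so these changes alone do not show that Wnt16 lay in another cell type. In the clustering reported here descending thin limb-like cells, the next class, had 5.37 and 7.47 CPM and thick ascending limb-like cells 1.37 and 1.25 CPM. The Parietal epithelium class also carried glomerular and mural genes: 9 podocyte markers summed to 808 and 1421 CPM with 0 of 9 absent, and the 12 pericyte markers to 2697 and 6445 CPM with 4 and 1 absent.

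Rspo3 (chr10:29452416-29535867, minus strand), an R-spondin that boosts Wnt signals, was highest in fibroblast-like cells. There 28 and 53 UMIs, in 17 of 110 and 20 of 118 cells, gave 48.7 and 58.2 CPM (1.196, 0.743 to 1.96). Endothelium-like cells, where Rspo3 is known from other vascular beds, had 8 and 31 UMIs, 3.34 and 5.88 CPM (1.76, 0.791 to 4.43). Pericyte or smooth muscle-like cells had 1 and 12 UMIs. Rspo3 thus was countable in 2 classes and called in neither.

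Lgr5 (chr10:115450311-115587780, minus strand) is a receptor for R-spondins, a Wnt target itself and the classic marker of intestinal stem cells. In these kidneys it was highest in endothelium. The 363 control and 794 haplodeficient endothelium-like cells held 251 and 200 UMIs, 104.8 and 37.9 CPM, a ratio of 0.362 (0.299 to 0.437). At least 1 UMI was seen in 16.5% (60 cells) and 11.3% (90 cells), at like median depths of 3979 and 3905.5 UMIs, against 0.130% and 0.417% of macrophage-like cells at 5087.5 and 6223.5 UMIs. With each cell thinned to 1000 UMIs the endothelial shares were 5.95% and 3.29%, with 27 and 34 shallower cells left out. The most in 1 cell was 24 and 12 UMIs, and without that cell in each library the ratio was 0.375. The intervals of the unthinned shares, 12.9% to 20.8% and 9.21% to 13.8%, overlapped.

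Within endothelium, Lgr5 lay in the descending vasa recta, the arterioles that run into the medulla, and in an unnamed subcluster led by Calca and Qpct. The descending vasa recta-like subcluster held 93 and 156 cells and had 178 and 121 UMIs of Lgr5, 270.8 and 117.5 CPM (0.434, 0.342 to 0.550); it was called there, as were 5.35% of countable genes. The Calca-led subcluster had 143 and 62.2 CPM (0.435, 0.294 to 0.643), with 4.19% of countable genes called. The arterial-like subcluster held 14 and 12 UMIs, and the venous-like subcluster 0 and 0. A separate unnamed cluster of 42 and 69 deep cells with both endothelial and pericyte genes had 119 and 128 UMIs of Lgr5, 159.7 and 92.3 CPM (0.578). Lgr5 was thus lower in the haplodeficient library in each of the 3 places that held most of it, while the share of the class made up by these subclusters also differed; with each subcluster given the same weight in both libraries the ratio for the class was 0.477. Slc14a1 and Aqp1, 2 of the 8 listed markers of the descending vasa recta, were lower in that subcluster as well. Slc14a1 stood at 561 and 341 CPM and Aqp1 at 4056 and 2518 CPM, and the rest of that list was not compared. The part of these 2 genes in the Lgr5 ratio was not tested.

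Lgr5 was also called in distal convoluted tubule-like cells, with 39 and 5 UMIs, 6.18 and 1.03 CPM (0.166, 0.0512 to 0.422). That call rested on a single control cell, which held 34 of the 39 UMIs. Without the cell with the most UMIs in each library the ratio was 1.04 (0.207 to 4.85).

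Lef1 (chr3:131110471-131224356, plus strand), the factor that carries beta-catenin to DNA and a target of the pathway, was found in endothelium and in T cells. Endothelium-like cells held 527 and 514 UMIs, 219.9 and 97.4 CPM, a ratio of 0.443 (0.391 to 0.501). At least 1 UMI was in 25.9% and 20.2% of them, against 0% and 0.333% of macrophage-like cells. Of the 94 and 160 endothelium-like cells with Lef1, 86 and 152 also had a UMI of Cdh5. In the descending vasa recta-like subcluster 493 and 450 UMIs gave 750 and 437 CPM (0.583, 0.512 to 0.663), so the difference there fell short of 2-fold. The share of these cells with Lef1 was 82.8% and 76.9%, or 37.5% and 33.6% when thinned. In the Calca-led subcluster Lef1 stood at 79.9 and 55.0 CPM (0.688), and in the cluster of endothelial and pericyte genes at 373 and 237 CPM (0.636). Descending vasa recta-like cells made up 93 of 363 control but 156 of 794 haplodeficient endothelium-like cells. With the same subcluster weights in both libraries the ratio for the class was 0.604. Without the subclusters led by genes of another class it was 0.541, and both values were short of the 2-fold line.

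In T cell-like cells Lef1, which T cells use early in their development and in the naive state, had 84 and 244 UMIs, 149 and 76.5 CPM (0.514, 0.3998 to 0.667), just short of a call. Cells with at least 1 UMI made up 24.7% and 15.2%. All 3 countable clusters of the class were lower in the haplodeficient library, but they differed in size. The one led by Tnfrsf4 and Cd40lg, with 85 and 465 cells, had 137 and 89.3 CPM (0.653). The one led by Cd8b1 and Cd8a, with 60 and 410 cells, had 202 and 72.3 CPM (0.358). The dividing one had a ratio of 0.354 on only 9 and 44 cells. Its cells were fewer than the minimum set for comparing a class, so nothing is read from its ratio. With the same cluster weights in both libraries the ratio was 0.503.

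**Figure D3:**
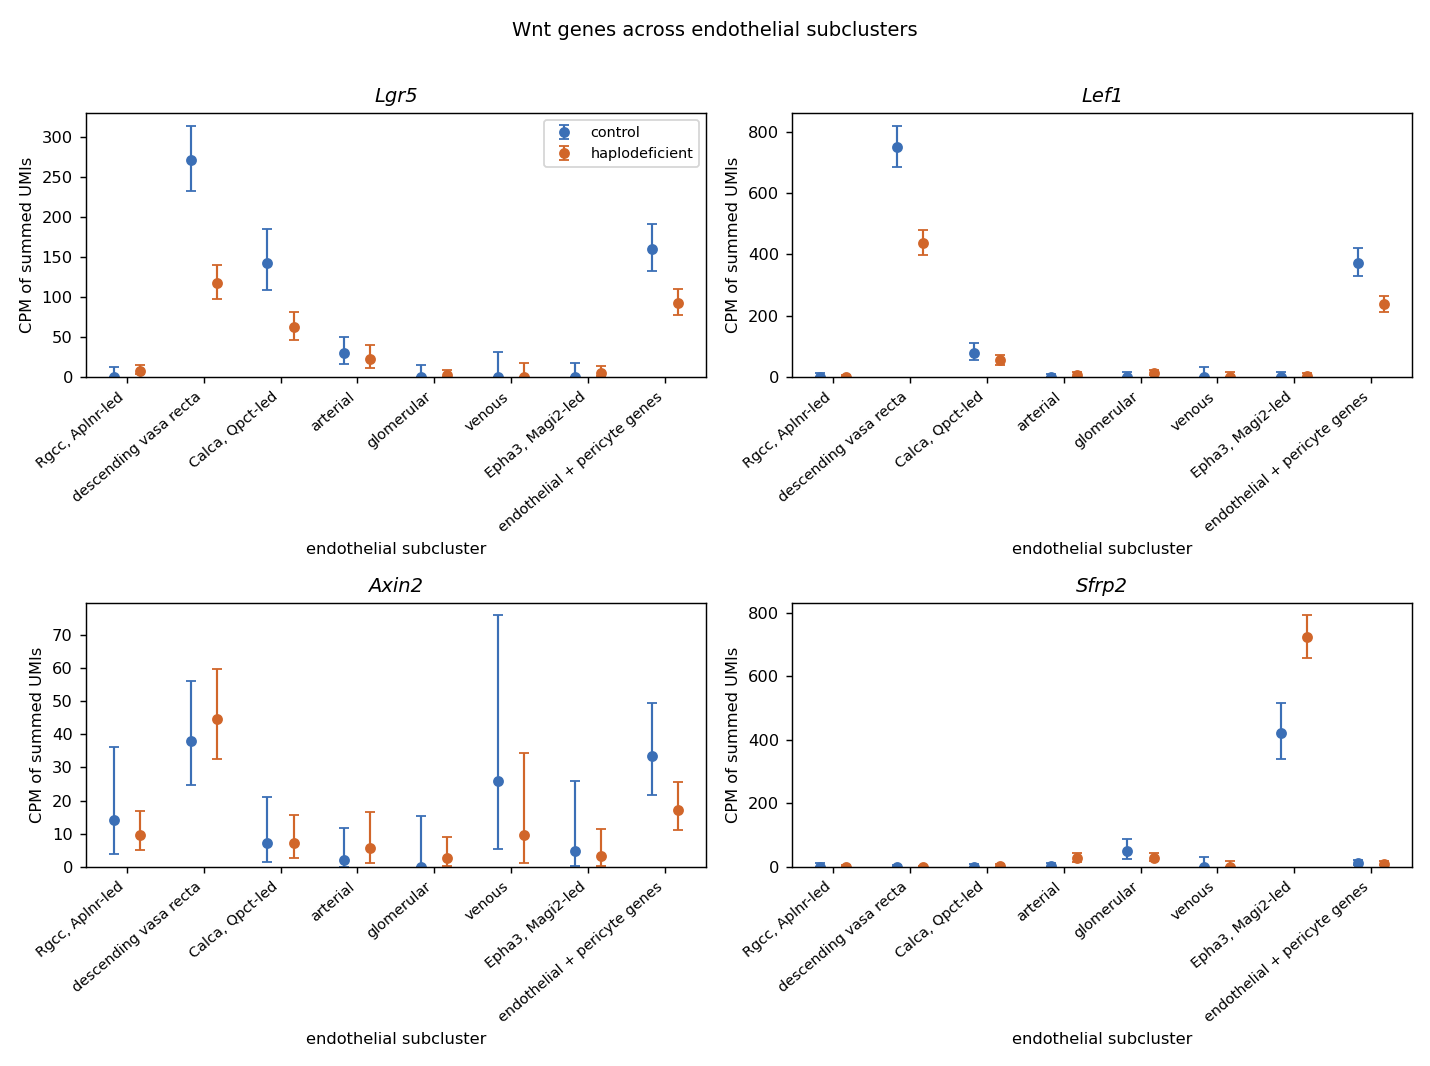
CPM of Lgr5, Lef1, Axin2 and Sfrp2 (panels) in the 7 endothelial subclusters and in the cluster of endothelial and pericyte genes (horizontal axis), control and haplodeficient library side by side; points are CPM of summed UMIs and bars exact Poisson 95% intervals. Lgr5 and Lef1 are low outside the descending vasa recta-like subcluster, the Calca-led subcluster and the mixed cluster, whereas Sfrp2 is at 421 and 723 CPM in the Epha3 and Magi2-led subcluster.

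Axin2 (chr11:108920349-108950783, plus strand) is a scaffold of the complex that destroys beta-catenin, raised by the pathway it restrains, and so the most used readout of canonical Wnt signalling. In the distal nephron 3 classes held more of it in the haplodeficient library. Thick ascending limb-like cells had 49 and 201 UMIs, 3.05 and 9.67 CPM, a ratio of 3.17 (2.31 to 4.43). Distal convoluted tubule-like cells had 10 and 61 UMIs, 1.58 and 12.5 CPM, a ratio of 7.91 (4.02 to 17.3). Principal or connecting tubule-like cells had 44 and 93 UMIs, 5.59 and 11.6 CPM, a ratio of 2.07 (1.43 to 3.03). The unnamed deep cluster of principal-cell and intercalated-cell markers had 3.40 and 10.96 CPM (3.22, 2.10 to 5.07). In both thick ascending limb-like clusters Axin2 was higher, by 2.49 times (1.76 to 3.59) in the deeper cells and 6.24 times (2.727 to 15.997) in the others. Axin2 was also seen in a larger share of cells: 1.74% (8 of 460) and 13.1% (38 of 290) of distal convoluted tubule-like cells, and in 3.66% and 10.1% of thick ascending limb-like cells, against 0.130% and 0.0833% of macrophage-like cells. Median depths were 10320.5 and 9540 UMIs in the first class and 11338 and 9362 in the second. Thinned to 1000 UMIs, the distal convoluted tubule-like shares were 0% and 1.05%, from 0 and 3 cells, too few to read. Leaving out the cell with the most UMIs in each library gave 8.98, 3.23 and 2.11 for distal convoluted tubule-, thick ascending limb- and principal or connecting tubule-like cells. In the last class the call was lost in 6 of 11 alternatives, and in thick ascending limb-like cells the ratio was 10.3 at a Leiden resolution of 2.

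In the other classes with at least 30 UMIs Axin2 was not called; intercalated cell-, fibroblast- and pericyte or smooth muscle-like cells held fewer, and their levels are given without a comparison. Descending thin limb-like cells had 8.31 and 4.46 CPM of Axin2 (0.537, 0.346 to 0.829), intercalated cell-like cells 3.45 and 3.52 CPM, and endothelium-like cells 37 and 73 UMIs, 15.4 and 13.8 CPM (0.896, 0.595 to 1.37). In the descending vasa recta-like subcluster, where Lgr5 and Lef1 were lower, Axin2 had 38.0 and 44.7 CPM (1.17, 0.707 to 2.00). Fibroblast-like cells had 13.9 and 17.6 CPM, pericyte or smooth muscle-like cells 13.7 and 13.9 CPM, T cell-like cells 10.6 and 12.8 CPM and parietal epithelium-like cells 10.5 and 9.35 CPM. In the Distal convoluted tubule class the 9 markers of that segment summed to 5799 CPM in the control and 2011 CPM in the haplodeficient one, the 9 thick ascending limb markers to 1995 and 729 CPM, and the 10 principal-cell markers to 551 and 762 CPM. Barcodes with 1 to 100 UMIs, which hold free RNA, had 1.89 and 7.09 CPM of Axin2, and the UMIs expected from free RNA came to 8.8% and 3.7% of those counted in the Distal convoluted tubule class. Whether the drop in segment markers bears on the Axin2 ratio was not tested.

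**Figure D4:**
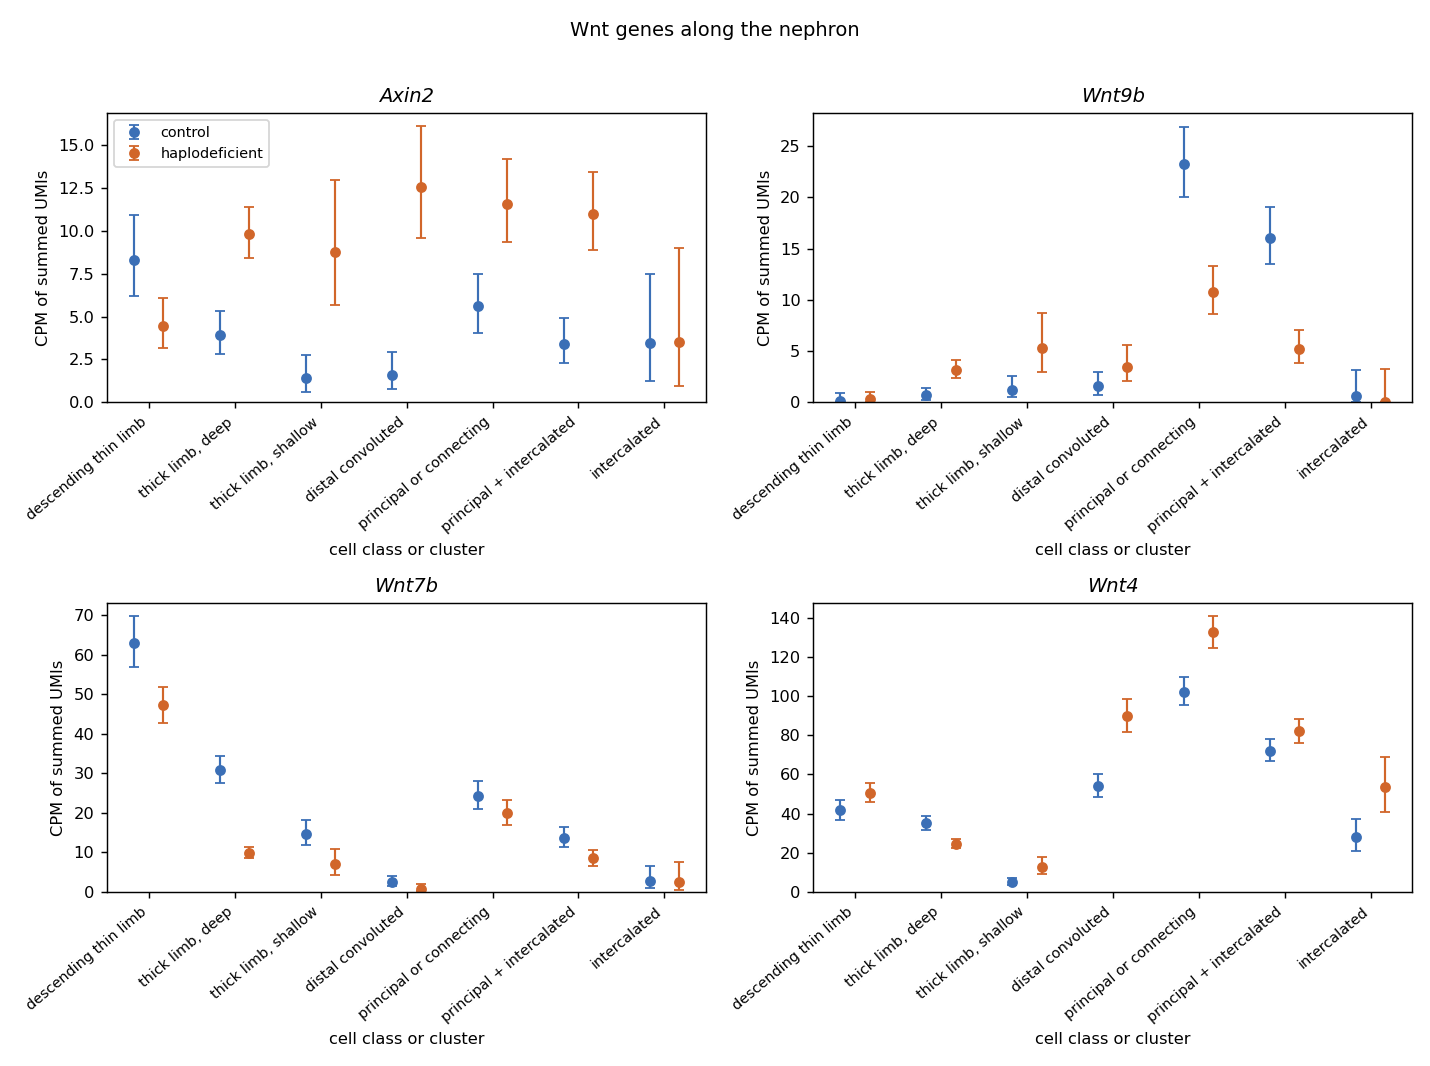
CPM of Axin2, Wnt9b, Wnt7b and Wnt4 (panels) along the nephron from the descending thin limb on (horizontal axis: descending thin limb-like, the deeper and shallower thick ascending limb-like clusters, distal convoluted tubule-like, principal or connecting tubule-like, the unnamed principal and intercalated cluster, intercalated cell-like). Points are CPM of summed UMIs per library, bars exact Poisson 95% intervals. Axin2 is higher in the haplodeficient library from the thick limb to the principal cells, while Wnt9b is lower in principal or connecting tubule-like cells (23.3 and 10.8 CPM) and Wnt7b lower in both thick limb clusters.

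Sfrp2 (chr3:83766321-83774316, plus strand) is a secreted Frizzled-related protein made mainly by mesenchymal cells. Pericyte or smooth muscle-like cells held the highest level, where 68 and 199 UMIs gave 104 and 163 CPM (1.57, 1.19 to 2.10). Parietal epithelium-like cells had 40 and 257 UMIs, 38.2 and 68.7 CPM (1.80, 1.28 to 2.58). The summed pericyte markers of that class, given above under Wnt16, were also higher in the haplodeficient library. Their part in this Sfrp2 ratio was not tested. Fibroblast-like cells had 27.8 and 19.8 CPM (0.711). Sfrp2 was called in endothelium-like cells, with 103 and 501 UMIs, 43.0 and 94.95 CPM, a ratio of 2.21 (1.78 to 2.76), and in descending thin limb-like cells, with 41 and 165 UMIs, 6.68 and 18.4 CPM, a ratio of 2.76 (1.95 to 3.98).

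Both Sfrp2 calls rested on few cells. In endothelium-like cells all UMIs lay in 18 of 363 control and 34 of 794 haplodeficient cells. Of these, 18 and 33 had a UMI of the endothelial gene Cdh5, and 12 and 29 one of the mural gene Pdgfrb; among the cells without Sfrp2, 4 of 345 and 7 of 760 had Pdgfrb. An unnamed subcluster of 13 and 27 cells, led by Epha3 and Magi2 and left unnamed for its podocyte genes, held 90 of the 103 and 460 of the 501 UMIs, 421 and 723 CPM (1.72, 1.37 to 2.18), and each of its cells carried Sfrp2. Its median depth was 14905 and 24778 UMIs; thinned to 1000 UMIs, 30.8% and 70.4% of its cells had Sfrp2. In unnamed s7, as this subcluster is numbered, 9 podocyte markers summed to 4077 and 4337 CPM with 0 absent, and 12 pericyte markers to 486 and 787 CPM. Without it, endothelium-like cells held 13 and 41 UMIs of Sfrp2, 5.96 and 8.84 CPM, a ratio of 1.48 (0.779 to 3.02), with no call. In descending thin limb-like cells 84 of the 165 haplodeficient UMIs were in 1 cell, and without the cell with the most UMIs in each library the ratio was 1.91 (1.23 to 3.02), also with no call; with a class given to each cell alone it was 0.872. In endothelium-like cells the call was also lost with a mitochondrial limit of 25% (1.82, 1.48 to 2.25) and with likely doublets kept. With doublets kept the ratio was 4.36 (1.04 to 38.8), and the call was lost because under 30 UMIs of Sfrp2 were left in the class.

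**Figure D5:**
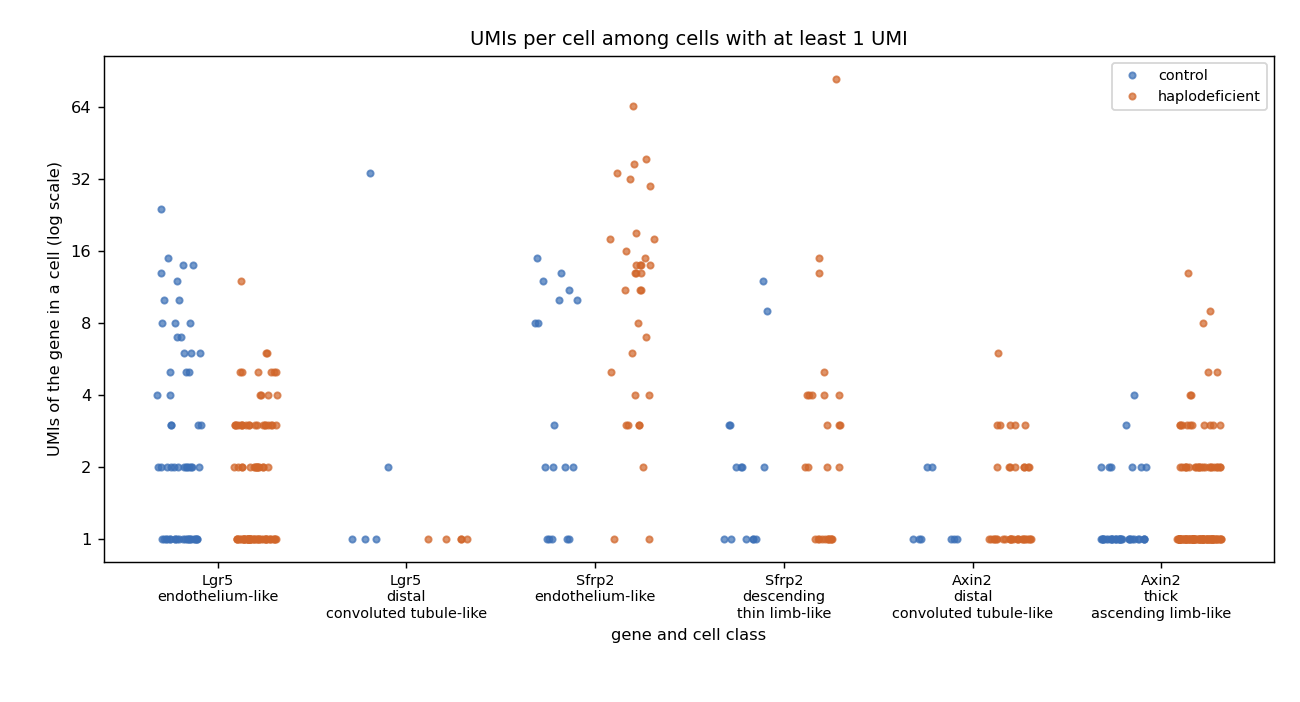
UMIs of the gene in each cell with at least 1 UMI (vertical axis, log scale) for 6 pairs of a gene and a class, control and haplodeficient library side by side; each point is 1 cell, spread sideways at random. A single control cell with 34 UMIs carries Lgr5 in distal convoluted tubule-like cells and a single haplodeficient cell 84 of the 165 Sfrp2 UMIs in descending thin limb-like cells, while Axin2 lies in many cells with few UMIs each.

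Across the wider pathway, a list of 87 Wnt genes was counted by the same rule, the 10 genes above included. In endothelium-like cells 46 of the 87 were countable, of which 1 was called higher and 3 lower (1.67% and 1.9% of all countable genes were), with a median log2 ratio of -0.15 against 0.01 over all countable genes. The 3 lower ones were Lgr5, a receptor, Lef1, a transducer, and Tnfrsf19, which had 22.5 and 9.67 CPM (0.429, 0.287 to 0.641). The target list, which holds these 3 among its 11 countable genes, had a median of -0.16, near that of the whole Wnt list. Znrf3 and Apcdd1, which curb the pathway, were picked after their values were seen, so they are no contrast to the 3 genes called lower. Znrf3, a ligase that removes Frizzled receptors, had 49.7 and 26.2 CPM (0.527, 0.409 to 0.679). It fell short of the 2-fold line, but its interval left out 1 and overlapped those of the 3 genes called lower. Apcdd1, a membrane inhibitor, had 15.9 and 13.3 CPM (0.837, 0.556 to 1.28). Dkk2, a secreted antagonist of Lrp6, led the inhibitors in endothelium at 612 and 627 CPM (1.03), and Fzd4, the receptor used by retinal vessels, had 99.3 and 92.1 CPM (0.927). In the descending vasa recta-like subcluster Tnfrsf19 stood at 80.6 and 47.6 CPM (0.590) and Dkk2 at 618 and 420 CPM (0.679).

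In the descending thin limb and in the distal nephron the genes called moved in both directions. Among 52 countable Wnt genes of thick ascending limb-like cells 2 were called higher, Axin2 and Wnt9b, and 5 lower (2.58% and 3.0% of all countable genes), with a median log2 ratio of -0.04 against 0.05 over all countable genes. Besides Wnt7b the lower ones were Wnt7a, Ror2 (a receptor of non-canonical Wnts, 8.02 and 2.64 CPM), Ccnd1 (cyclin D1, 149 and 60.4 CPM) and Apcdd1 (1.80 and 0.577 CPM). Distal convoluted tubule-like cells had 42 countable genes, 2 called higher (Axin2 and Dkk2) and 3 lower (Lgr5, Ror2 and Sfrp1), beside 2.57% and 2.29% of all countable genes, with a median of 0.01 against 0.06. Principal or connecting tubule-like cells had 47, 1 called higher (Axin2) and 4 lower (Wnt9b, Fzd1, Sfrp1 and Tnfrsf19), beside 3.12% and 3.24% of all countable genes, with a median of -0.20 against 0.05. Sfrp1, a secreted inhibitor that binds Wnts, was at 144 and 52.0 CPM (0.362) in principal or connecting tubule-like cells and in distal convoluted tubule-like cells its ratio was 0.434 (0.401 to 0.469). Descending thin limb-like cells had 54 countable genes, 1 called higher (Sfrp2; 1.96% of all countable genes) and 3 lower (3.81%): Wnt7a (4.56 and 0.781 CPM), Ror1 (66.1 and 21.1 CPM) and Sp5, a target whose promoter window is printed above (16.9 and 5.02 CPM, 0.296, 0.204 to 0.424). On the target list alone, thick ascending limb-like cells had 8 countable genes, 1 called higher (Axin2) and 2 lower (Ccnd1 and Apcdd1). Distal convoluted tubule-like cells had 6, 1 higher (Axin2) and 1 lower (Lgr5). Principal or connecting tubule-like cells had 7, 1 higher (Axin2) and 1 lower (Tnfrsf19). Descending thin limb-like cells had 8, 0 higher and 1 lower (Sp5), and Axin2 was lower there without a call. Whether the targets moved together was not tested.

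For each of the 10 genes, the genes whose log2(CPM + 1) followed it most closely over the 16 classes were listed, as a description over classes that share libraries and depth. Lgr5 ran with Mamstr (Pearson r = 0.98), Fam167b and Tek, the last a receptor of endothelium. Lef1 ran with Gimap5 (r = 0.97) and Gimap6, GTPases of immune and endothelial cells. Wnt9b ran with Shh (r = 0.95), a morphogen made in the collecting duct lineage, and Avpr2, the vasopressin receptor of principal cells. Rspo3 ran with Pdgfra (r = 0.97), the standard fibroblast marker, Sfrp2 with Msrb3 (r = 0.95), Wnt16 with Fam189a1 (r = 0.98) and Axin2 with Stx1a (r = 0.95). Wnt4 was closest to Serpina3i (r = 0.88), Wnt5a to Gm28376 (r = 0.93) and Wnt7b to AU022754 (r = 0.94). AU022754 overlaps Wnt7b on the opposite strand, and Wnt5a, Lgr5, Lef1, Axin2, Sfrp2 and Rspo3 also overlap a non-coding gene. Whether counting used the strand is not stated, so reads of such a pair cannot be told apart.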

How the data were processed

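The deposited values were raw UMI counts per gene and barcode, 1 matrix per library, which the authors made with Cell Ranger 4, per the file headers, on mm10, per the submitters' processing notes; the libraries were 10x 3′ single-cell libraries and the annotation is not given in the sources used here. Barcodes were kept from 500 UMIs and 200 genes upwards, up to a mitochondrial share of 50%, and likely doublets (715 and 804) were removed by Scrublet score, at 0.8% per 1000 cells. Cells of both libraries were clustered together with scanpy 1.11.5 (2000 variable genes without the Wnt list, 30 components, 15 neighbours, Leiden resolution 1). Of 36 clusters, 32 were named from marker lists; the naming score was set after the data were seen. UMIs were summed per class and library. Ratios have exact conditional binomial, CPM exact Poisson and shares exact Clopper-Pearson 95% intervals, for counting error only. A fold change of at least 2 with an interval leaving out 1, on at least 30 UMIs, was a call. The procedure was checked on simulated Poisson counts, the model that the interval assumes. That check does not cover UMIs bunched in few cells or differences between animals. The members and lists were chosen with earlier results of these data known. All 10 members are named; other Wnt genes are named where called, where they lead their list in a class, or, for Znrf3, Apcdd1 and Fzd4 in endothelium, after their values were seen; 1 marker gene is not reported here; similar genes are those with the highest Pearson correlation. Alternatives to the filters, clustering, naming, scaling and free RNA were run. Coordinates are GENCODE M21 on GRCm38; promoter sequences are from RefSeq (GRCm38.p6).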

Additional observations from a re-analysis of the deposited data

Results flagged for a closer look

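Wnt9b went in opposite directions in 2 tubule classes of the same libraries. In thick ascending limb-like cells its CPM was 3.98 times higher in the haplodeficient than in the control library (14 and 72 UMIs), and in principal or connecting tubule-like cells the ratio was 0.465 (183 and 87 UMIs). Each class had 1 library per group, and the difference between the classes was not tested.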

How the results depend on the processing

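The Lgr5 ratio in endothelium-like cells kept its direction in 15 of 15 alternatives and moved to 0.477 with the same subcluster weights in both libraries. The Sfrp2 ratio there was 4.36 with doublets kept (1.04 to 38.8), with no call because under 30 UMIs were left in the class. It was 1.82 with a mitochondrial limit of 25% (no call) and 1.65 with the same subcluster weights. Without the subclusters led by genes of another class it was 1.72, and without the subcluster of podocyte genes alone 1.48, both with no call. Of the 12 pairs called, 9 to 12 were called again in the other settings; their number was 11 to 21, the 21 with a class given to each cell alone. The leading class was the same for 5 of 10 genes with each library's own UMI minimum (5718 and 6988 UMIs), where 12 classes were compared in place of 16. Among 126 other values 116 kept their direction within the counting error, 8 moved and 2 reversed: Sfrp2 in descending thin limb-like cells to 0.872 with a class given to each cell alone, and Lgr5 in distal convoluted tubule-like cells to 1.04 without the cell with the most UMIs in each library, the last by leaving out 1 cell that held 34 of 39 UMIs; the other causes were not tested. Axin2 in principal or connecting tubule-like cells was called in 5 and not in 6 alternatives, and in thick ascending limb-like cells reached 10.3 at a Leiden resolution of 2. Wnt4 in injured proximal tubule-like cells was 1.52 at that resolution and 1.81 with doublets kept, both with no call. No paired analysis was possible because each group has 1 library. For the same reason no replicate could be left out. A gene with under 30 UMIs in a class was not compared at this depth.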
